A study of Mus musculus with 4 samples.

Results

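The genes of the mitochondrial ribosome were followed in mouse liver 6 days after an adenovirus carrying lipin 1beta or green fluorescent protein (GFP). They were taken as every gene whose symbol begins with Mrpl (large subunit) or Mrps (small subunit) and a number, read only from probe sets annotated with a single symbol. This gave 74 genes of the 12393 on the array, 47 of the large and 27 of the small subunit, measured by 127 of 22626 probe sets. Another 3 probe sets carried such a symbol among several and were left out. All recipients were adult male C57BL6 mice. GFP adenovirus served as the control, so all animals carried a viral infection of the liver, and what differed was the transgene, GFP or the beta form of mouse lipin 1. Each group had 2 arrays, and neither the promoter of the transgene nor the share of hepatocytes infected was stated in the labels. The labels give polyA RNA for lipin replicate 2 and total RNA for the other 3 arrays, and nowhere name separate animals for the arrays within a group. A p-value here therefore covers only sample-to-sample spread, part or all of which could be technical.

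Mitochondria keep a small genome that encodes core subunits of the respiratory chain and of the ATP synthase, and the mitochondrial ribosome, or mitoribosome, translates their messages. Its ribosomal RNAs come from mitochondrial DNA, but all its proteins are encoded in the nucleus, made in the cytosol and imported. The small subunit binds the messenger RNA and reads the codons. The large subunit joins the amino acids and passes the new chain through an exit tunnel to the inner membrane. In hepatocytes, respiration supplied in this way supports fatty acid oxidation, gluconeogenesis and the urea cycle. Lipin 1 is a phosphatidate phosphatase that also acts in the nucleus with PGC-1 alpha, a coactivator known to act on nuclear genes of mitochondrial components.

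Values are MAS5 signals, in arbitrary units on a linear scale, as deposited. The 2% trimmed mean was about 1501 on each array, the medians ran from 582 to 746, and 18.4% to 20.9% of probe sets per array lay at or under the floor of 119.5 to which dim signals were raised. GFP replicate 2 stood apart. Its mean correlation with the other arrays over log2 signals was 0.731, against 0.781 to 0.793 for the other 3, and its actin 3' to 5' signal ratio, a measure of RNA integrity, was 4.22 against 1.77 to 2.86. The Lpin1 message, to which the transgene would add where a probe set lies in the sequence carried by the virus, did not separate the groups. Whether the Lpin1 probe sets lie there was not checked. One probe set read 2730 and 1430 in the GFP livers and 2261 and 6719 in the lipin livers, and the other read 7082 and 4632 against 3854 and 11087. On both, the library labelled lipin replicate 1 lay within or below the GFP range, and the log2 differences, 0.98 ± 0.53 (SE) and 0.19 ± 0.45, had limma adjusted p-values of 0.962 and 0.977. Every direction below rests on the labels as given.

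No mitoribosomal gene passed the test at this number of arrays, and the small subunit genes had more differences above 0 than below. Over the 27 small subunit genes the median log2 difference, lipin minus GFP, was 0.37 (1.29-fold), and 20 of 27 (74.1%) were above 0. Over the 47 large subunit genes it was 0.13 (1.09-fold), and 27 of 47 (57.4%) were above 0. All 74 together had a median of 0.21 (1.16-fold) with 47 (63.5%) above 0, while 50.1% of the 8493 genes tested were above 0 and their median was 0.00148. All 74 genes kept at least 1 probe set past the filter on dim signals. Differences of single genes ran from -0.96 for Mrpl47 to 2.48 for Mrps5, with the middle of the distribution between -0.19 and 0.54 (quartiles), against -0.45 and 0.45 over all genes.

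limma, run on log2 signals of 13576 probe sets and adjusted over all of them by Benjamini and Hochberg, called 0 of the 112 mitoribosomal probe sets tested and 0% of all probe sets at an adjusted p under 0.05. The lowest adjusted p anywhere was 0.660. At an unadjusted p under 0.05, 4 mitoribosomal genes were higher and 2 lower, against 2.66% and 1.97% of all genes. The higher ones, Mrps14, Mrps5, Mrps34 and Mrps16, were all of the small subunit, and the lower ones, Mrpl52 and Mrpl45, were both of the large subunit. Both lipin arrays lay above both GFP arrays for 21 of 74 genes (28.4%, against 17.3% of all genes) and below them for 11 (14.9%, against 16.0%). An exact permutation test of 2 arrays against 2, two-sided, cannot give a p under 0.333, so non-overlap of a single gene is a description. A lower level in bulk liver cannot tell fewer cells of a type from less RNA per cell.

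**Figure D1:**
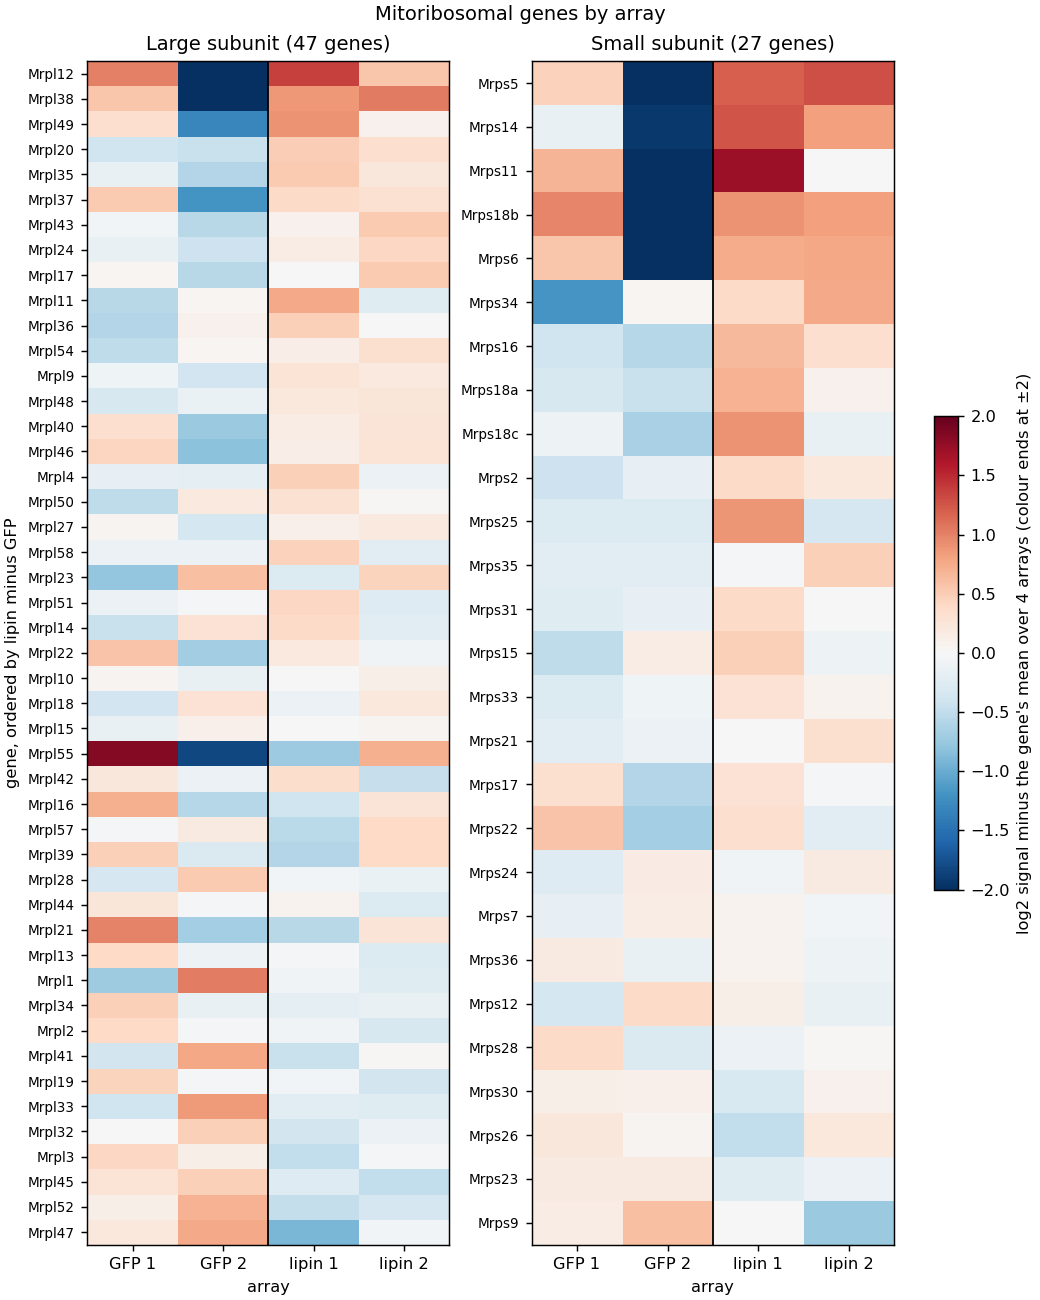
Log2 signal of each of the 74 mitoribosomal genes on each array (columns) minus the gene's own mean over the 4 arrays, ordered by lipin minus GFP within each subunit. Red is above the gene's mean and blue below, and the deepest blue in the GFP 2 column belongs to a few genes at the top of each panel, among them Mrps5, Mrpl12 and Mrpl38.

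In the small subunit, Mrps14, a protein of the subunit head that contacts the ribosomal RNA, read 1555 and 454 in the GFP livers and 4116 and 3025 in the lipin livers. Both lipin values were above both GFP values, by 2.07 ± 0.60 on the log2 scale (4.20-fold, limma adjusted p = 0.962, n = 2 per group). Without GFP replicate 2 the difference was 1.18. A second probe set of Mrps14 read 1695 and 1360 against 1848 and 1740, a difference of 0.24 ± 0.51 with the same order of groups. This second probe set was the brighter on both GFP arrays, so the first was taken for the gene through its lipin values.

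Mrps5, whose bacterial relative lines the path by which messenger RNA enters the ribosome, read 1718 and 161 in the GFP livers and 2847 and 3024 in the lipin livers. This was the widest gap among the 74 genes, 2.48 ± 0.86 (5.58-fold, limma adjusted p = 0.962), and it was 0.77 without GFP replicate 2. The GFP arrays lay further apart from each other than GFP replicate 1 lay from the lipin arrays. Another Mrps5 probe set, which did not pass the filter on dim signals, read 533 and 48.8 against 1287 and 22.8, with the groups overlapping.

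Mrps16, a conserved protein of the subunit body, read 1676 and 1489 against 3466 and 2790, or 1582 ± 132 (SD, n = 2) in GFP and 3128 ± 478 (SD, n = 2) in lipin livers. Its difference of 0.98 ± 0.45 (1.97-fold, limma adjusted p = 0.962) stayed between 0.82 and 1.13 whichever array was left out. Mrps34, a mitochondria-specific protein needed for the stability of the small ribosomal RNA, read 884 and 2041 against 2601 and 3387, a difference of 1.14 ± 0.52 that was 0.54 without GFP replicate 1. For both genes the groups did not overlap. Mrps2, another protein with a bacterial relative, read 1503 and 1787 against 2628 and 2317 (0.59 ± 0.47). The groups were also apart, with lipin higher, for Mrps6, Mrps18a, Mrps21, Mrps31, Mrps33 and Mrps35. This makes 11 of 27 small subunit genes (40.7%), against 17.3% of all genes.

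Mrps18a, Mrps18b and Mrps18c are paralogs of a single bacterial protein. Mrps18a read 2022 and 1847 in GFP livers and 4071 and 2675 in lipin livers (0.77 ± 0.44), with the groups apart. Mrps18b read 2802 and 222 against 2654 and 2529, a difference of 1.72 ± 0.87 that turned to -0.11 without GFP replicate 2. Mrps18c read 2432 and 1662 against 4888 and 2362 (0.76 ± 0.47), and lipin replicate 1 alone lay above the rest. With all arrays the 3 paralogs were above 0, but their arrays did not follow the same order.

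Mrps11, also conserved from bacteria, read 1130 and 133 against 2308 and 705 (1.72 ± 1.07), and Mrps6 read 742 and 31.8 against 848 and 861 (1.52 ± 1.21). In both, GFP replicate 2 was the low array, for Mrps6 below the floor, and without it the differences were 0.18 and 0.20. Mrps12, a protein of the decoding site, read 1366 and 2279 against 1888 and 1577, a difference of -0.03 ± 0.51 with the lipin values inside the GFP range.

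Only Mrps9, Mrps23 and Mrps30 of the 27 small subunit genes had both lipin arrays below both GFP arrays (11.1%, against 16.0% of all genes). Mrps9, conserved from bacteria, read 1377 and 1888 against 1245 and 746 (-0.74 ± 0.60). Mrps23, a mitochondria-specific protein, read 1633 and 1626 against 1210 and 1317 (-0.37 ± 0.54). Mrps30 read 2846 and 2833 against 2123 and 2791 (-0.22 ± 0.42). The names of Mrps30 and Mrps18a are older than the ribosome structures, which place both proteins in the large subunit, and Mrps36 belongs to the 2-oxoglutarate dehydrogenase complex. Mrps36 read 3648 and 2925 against 3410 and 3002 (-0.03 ± 0.39). With these genes placed by position, the small subunit median was 0.38 over 24 genes and the large subunit median 0.13 over 49.

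**Figure D2:**
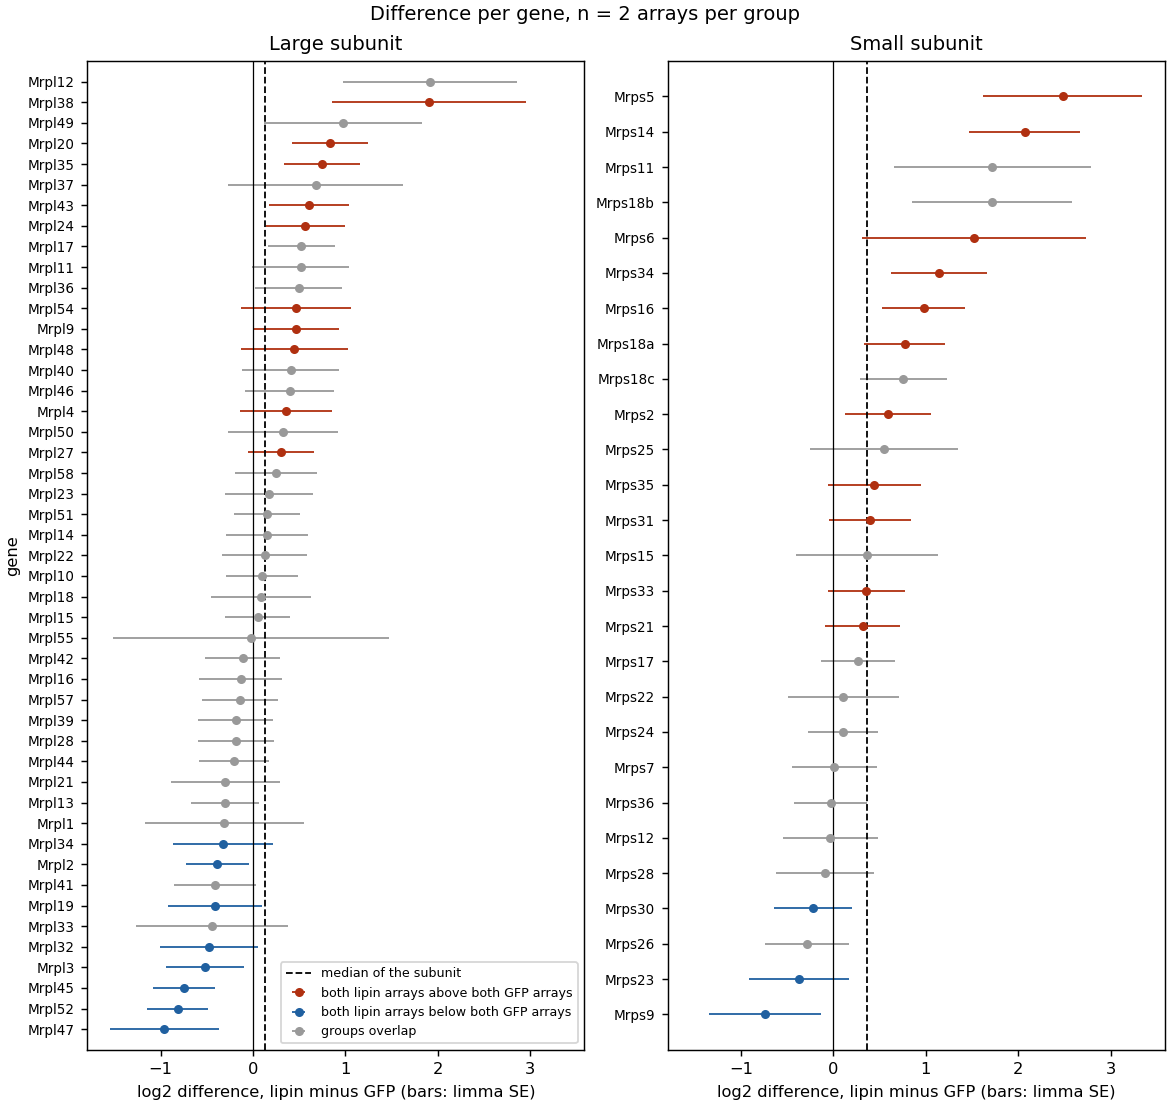
Log2 difference, lipin minus GFP, of each large subunit (left) and small subunit (right) gene, with limma's standard error as a bar and the subunit's median as a dashed line (0.13 and 0.37). Red marks genes with both lipin arrays above both GFP arrays (10 and 11), blue the reverse (8 and 3), and most bars reach or cross 0.

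In the large subunit the genes spread to both sides. Of 47, 10 (21.3%) were apart upward and 8 (17.0%) downward, against 17.3% and 16.0% of all genes. Mrpl52, a mitochondria-specific protein near the central protuberance, read 12507 and 18793 in the GFP livers and 8323 and 9123 in the lipin livers. Its lipin values were both lower, by 0.82 ± 0.33 on the log2 scale (1.76-fold, limma adjusted p = 0.962). The other tested Mrpl52 probe sets differed by 0.15 ± 0.64 and 0.09 ± 0.44, so among the tested probe sets the lower values were on the brightest only.

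Mrpl45, which sits at the exit of the tunnel and helps to hold the ribosome at the inner membrane, read 8120 and 9437 against 5628 and 4811. The group means were 8778 ± 931 and 5219 ± 577 (SD, n = 2 each), a difference of -0.75 ± 0.33 (1.68-fold lower, limma adjusted p = 0.962) that kept between -0.86 and -0.64 whichever array was left out. Mrpl47, another tunnel exit protein, read 1553 and 2279 against 719 and 1300 (-0.96 ± 0.59), again with both lipin arrays lower. Mrpl3 and Mrpl2, conserved proteins that lie near the peptidyl transferase centre, differed by -0.52 ± 0.42 and -0.39 ± 0.34. Mrpl2 read 8727 and 6525 against 6278 and 5303, and Mrpl3 read 3769 and 3068 against 2013 and 2796. Mrpl19, Mrpl32 and Mrpl34, conserved from bacteria, completed the 8 genes with both lipin arrays lower, at -0.42, -0.48 and -0.33. For Mrpl34 this was close to a tie, with GFP replicate 2 at 1334 and lipin replicate 2 at 1331. Its difference was -0.01 without GFP replicate 1, and on its other tested probe set the groups overlapped.

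Among the large subunit genes that were higher, Mrpl20, which in bacteria is needed early in assembly, was the steadiest. It read 2093 and 2022 in GFP livers and 3851 and 3481 in lipin livers, 2058 ± 50.6 against 3666 ± 261 (SD, n = 2 each). The difference, 0.83 ± 0.41 (1.78-fold, limma adjusted p = 0.962), stayed between 0.76 and 0.90 with any array left out. Mrpl43, mitochondria-specific, read 2564 and 1808 against 2813 and 3801 (0.60 ± 0.43), with the groups apart by a narrow margin. Mrpl17, at the tunnel exit, read 6755 and 4472 against 6567 and 9474 (0.52 ± 0.36), and its groups overlapped. The groups were apart, with lipin higher, also for Mrpl4, Mrpl9, Mrpl24, Mrpl27, Mrpl35, Mrpl38, Mrpl48 and Mrpl54.

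By place in the large subunit, the stalk, the arm that recruits translation factors, had all 4 of its genes tested above 0, with a median of 0.49. Mrpl12, the stalk protein that also binds the mitochondrial RNA polymerase, read 2523 and 166 in GFP livers and 3241 and 1841 in lipin livers. Its difference was 1.92 ± 0.94 (3.77-fold, limma adjusted p = 0.962), but GFP replicate 1 lay between the lipin arrays, and without GFP replicate 2 the value was -0.05. Mrpl54 read 868 and 1264 against 1356 and 1545 (0.47 ± 0.60), the only stalk gene with its groups apart. Without GFP replicate 1 the stalk median was 0.21, with all 4 above 0. Without GFP replicate 2 it was 0.37, with 3 above 0. Mrpl10, which anchors the stalk, differed by 0.09 ± 0.39 and Mrpl11, at the stalk base, by 0.51 ± 0.52. The Mrpl11 difference was 0.02 without lipin replicate 1. Another tested Mrpl11 probe set read 1824 and 2512 against 1495 and 1585 (-0.48 ± 0.49), with both lipin arrays lower, and a dim one was at 2.02. The place of Mrpl11 above 0 thus depends on the probe set taken.

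The central protuberance genes, at the top of the large subunit, were above 0 in 6 of 8 cases with a median of 0.35. Mrpl38 read 975 and 112 against 1207 and 1353, a difference of 1.90 ± 1.05. GFP replicate 2, below the floor, was the low array, and leaving it out gave 0.39. On GFP replicate 2 the 8 genes had a median deviation of -0.55 from their own means. Without it 4 of 8 were above 0 with a median of -0.02, and Mrpl46 and Mrpl40 turned from 0.40 and 0.41 to -0.23 and -0.13. The 8 tunnel exit genes were split, 4 above and 4 below 0, with a median of -0.03, which was -0.42 (3 above 0) without GFP replicate 2. Mrpl58, which frees stalled ribosomes by cutting the peptide from its transfer RNA, read 2205 and 2205 against 3300 and 2083 (0.25 ± 0.45).

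**Figure D3:**
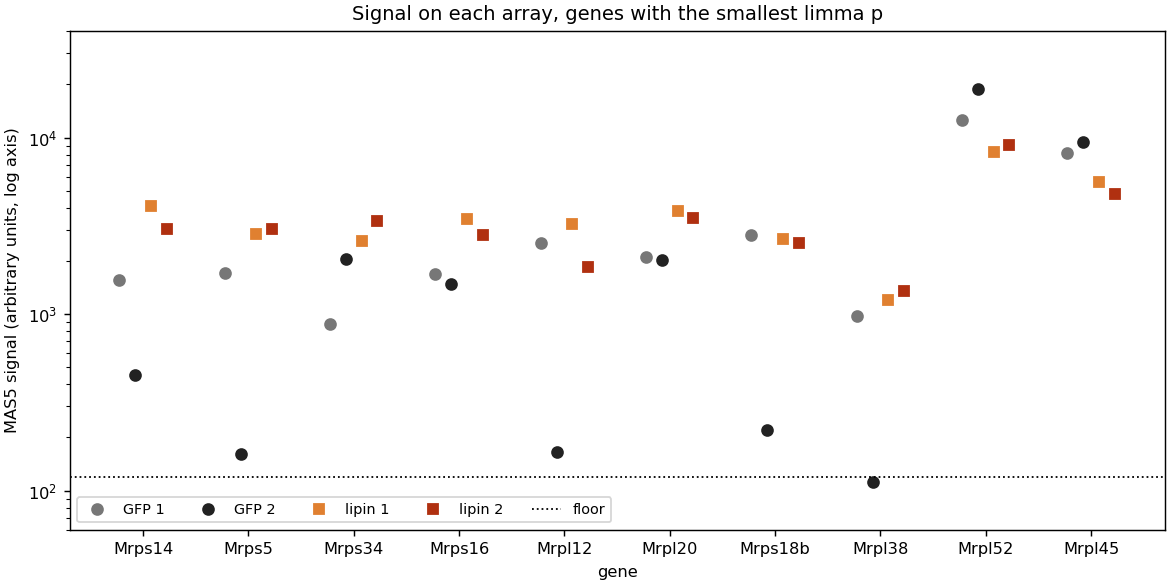
MAS5 signal on each array, on a log axis, for the 10 mitoribosomal genes with the smallest limma p (circles GFP, squares lipin, dotted line the floor of 119.5). GFP 2 lies far below the other 3 arrays for Mrps5 (161), Mrpl12 (166), Mrps18b (222) and Mrpl38 (112), whereas Mrpl20, Mrps16 and Mrpl45 show both arrays of a group close together.

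Several of the widest gaps turned on a single array. With dim signals raised to the floor, GFP replicate 2 lay at least 4-fold below every other array for 6 of 74 genes (8.11%), against 3.41% of all genes. These were Mrps5, Mrps6, Mrps11, Mrps18b, Mrpl12 and Mrpl38. This rule was chosen after their values were seen. Mrpl55, which read 1509 and 60.4 against 254 and 689, did not meet it on this floored scale. No other array was lowest in that way for any mitoribosomal gene, while 1.90% to 2.03% of all genes were so on each of them. Rars2, a mitochondrial aminoacyl-tRNA synthetase, and Noa1, a mitoribosome assembly factor, met it on GFP replicate 2 too, so it was not limited to the mitoribosomal proteins. No gene among the 43 cytosolic ribosomal protein genes tested or the 31 complex I genes tested met it on any array, but these lists were brighter, with medians of the gene means at signals of 22830 and 8448 against 2228 for the mitoribosomal genes. GFP replicate 2 was the lowest array for 31 mitoribosomal genes, against 27.3% of all genes, GFP replicate 1 for 22, and the lipin replicates for 11 and 10. The part that this array's actin 3' to 5' ratio plays in these values was not tested. Without GFP replicate 2 the medians were 0.18 over all 74 genes, 0.16 for the large and 0.34 for the small subunit. Then 44 of 74 genes (59.46%) were above 0, against 50.35% of all genes.

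The gap between subunits turned on another array. The median deviations of the small subunit genes from their own means were -0.15 and -0.17 on the GFP arrays and 0.34 and 0.07 on the lipin arrays. Those of the large subunit genes were 0.04 and -0.11 on the GFP arrays and 0.07 and 0.05 on the lipin arrays. Large minus small, lipin against GFP, was -0.26 on this measure, and -0.09 without lipin replicate 1. No test was made of a score over the members, and the pooled SD of the large minus small value between arrays of a group was 0.14. Left out in turn, the arrays gave small subunit medians of 0.23 to 0.47 and large subunit medians of 0.16 to 0.25, with the small subunit above the large each time.

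**Figure D4:**
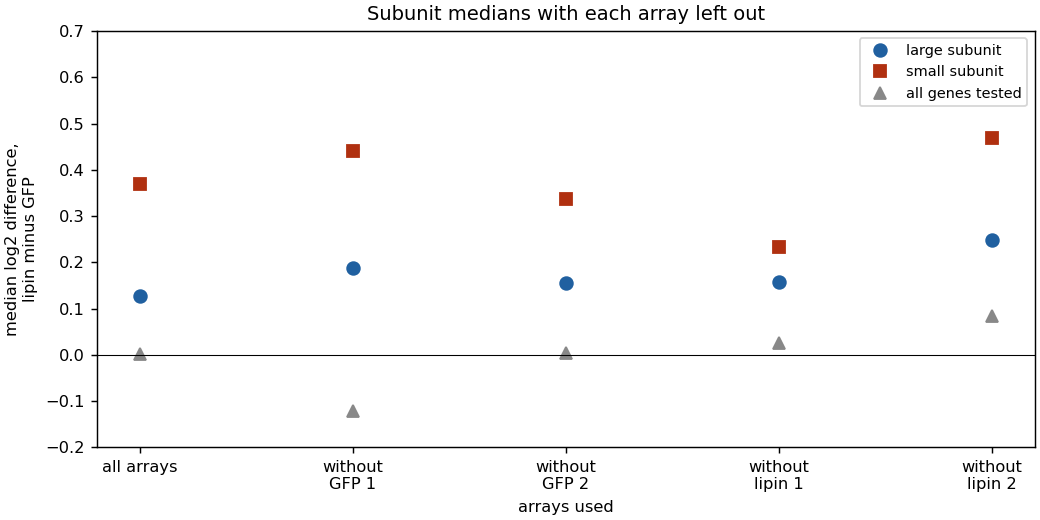
Median log2 difference, lipin minus GFP, of the large subunit (circles), the small subunit (squares) and all genes tested (triangles), with all arrays and with each array left out. The small subunit median is above the large one in every column, and the medians come closest, 0.23 and 0.16, without lipin replicate 1.

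Probe sets of the same gene often differed. Of the 27 mitoribosomal genes with several tested probe sets, 18 (66.7%) had differences of both signs, against 55.0% of 2628 such genes on the array, and the median spread within a gene was 0.88 log2 units against 0.82. Mrpl21 had a probe set at -0.30 ± 0.59, read at 3688 and 1154 against 1267 and 2214, and a dimmer one at 2.76 ± 1.11, read at 114 and 339 against 1530 and 1213. The dimmer one separated the groups and the brighter one did not. Mrpl48 had 0.44 ± 0.58 on the brighter and -1.34 ± 0.66 on the dimmer probe set, and in each of them the groups were apart, in opposite directions. Mrpl11 ran from -0.48 to 2.02 over 3 probe sets, and Mrpl15 from -1.14 to 0.27 over 6. The Mrpl11 probe set at 2.02 read 324 and 158 in GFP livers and passed the filter through the lipin arrays. The Mrpl15 probe set at -1.14 read 312.5 and 221 in lipin livers and passed through the GFP arrays. Mrpl35, whose brighter probe set read 2704 and 1989 against 4304 and 3503 (0.74 ± 0.41), had a dim one at -1.17 ± 1.53. Mrpl33 (-0.44 and 1.29), Mrps15 (0.37 and -1.03), Mrpl49 (-0.64 and 0.97) and Mrpl41 (-0.41 and 0.53) also held both signs, as did Mrpl1, Mrpl3, Mrpl13, Mrpl28, Mrpl39, Mrpl50, Mrpl51, Mrpl52 and Mrps9. For these 18 genes the direction given depends on the probe set taken.

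By the numbers in the symbols, which up to Mrpl36 and Mrps21 follow the bacterial ribosome, 42 genes have a bacterial counterpart and 32 are mitochondria-specific. This split by symbol leaves a few genes of bacterial descent, such as Mrpl47 and Mrps24, on the mitochondrial side. The first set had a median of 0.28 with 29 above 0 (69.0%) and the second 0.13 with 18 above 0 (56.2%). The groups were apart upward for 13 of 42 and 8 of 32 genes, both larger shares than the 17.3% of all genes. They were apart downward for 6 of 42 (14.3%) and 5 of 32 (15.6%), near the 16.0% of all genes. Without GFP replicate 2 the first set kept a median of 0.24 with 29 above 0, and the second had -0.08 with 15 above 0.

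Proteins of the mitoribosome that carry other symbols differed among themselves. Dap3, a GTP-binding protein of the small subunit, read 1661 and 1152 against 2110 and 2262 (0.66 ± 0.50). Chchd1, also of the small subunit, read 7947 and 7908 against 4900 and 7650 (-0.37 ± 0.35). Of 4 such genes tested, 1 was above 0. The mitochondrial translation factors were likewise split, 3 of 5 above 0 with a median of 0.11. Leaving out GFP replicate 1 or lipin replicate 1 turned that median to -0.02 or -0.09. Gfm2, which works with the recycling factor to part the subunits, read 656 and 558 against 1400 and 1309 (1.16 ± 0.71), while Mrrf, the recycling factor itself, read 2617 and 2368 against 1978 and 1868 (-0.37 ± 0.45). Both pairs of groups were apart, in opposite directions. Gfm1, the elongation factor, differed by 0.37 ± 0.41.

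Of the mitochondrial aminoacyl-tRNA synthetases, which load transfer RNAs, 6 of 7 tested were above 0 with a median of 0.22, but none had its groups apart. Rars2, for arginine, read 2099 and 371 in GFP livers and 1656 and 1853 in lipin livers (0.99 ± 0.74). Fars2, for phenylalanine, and Sars2, for serine, differed by 0.62 ± 0.55 and 0.83 ± 0.79. GFP replicate 2 was the low array for all 3 of these genes. Without it their differences were -0.26, -0.14 and -0.13, and the list had 3 of 7 genes above 0 and a median of -0.13.

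The assembly factors had 7 of 15 tested above 0 and a median of -0.03. Noa1, a GTPase of small subunit assembly, read 573 and 78.9 against 812 and 1505 (2.08 ± 1.14). Ngrn, which acts in large subunit assembly, read 843 and 288 against 1358 and 1094 (1.31 ± 0.84). Without GFP replicate 2 these differences were 0.95 and 0.53. Tfb1m, which methylates the small ribosomal RNA, read 1894 and 914 against 402 and 687 (-1.32 ± 0.79). In each of the 3 the groups were apart, for Tfb1m with lipin lower. Without GFP replicate 2 the list had 9 of 15 genes above 0 and a median of 0.24, and without GFP replicate 1 it had 6 and -0.34.

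Genes of mitochondrial DNA transcription and maintenance had 4 of 9 tested above 0 and a median of -0.09, or 2 of 9 and -0.30 with GFP replicate 2 left out. Tfb2m, a transcription initiation factor, differed by -0.51 ± 0.50, Polrmt, the RNA polymerase, by -0.30 ± 0.45, and Polg, the DNA polymerase, by 0.56 ± 0.61. Nuclear regulators known to act on mitoribosomal promoters or with PGC-1 had 3 of 6 tested above 0. Esrra, the nuclear receptor ERR alpha, read 534 and 654 against 1693 and 871 (1.04 ± 0.76), with the groups apart. Sp1 read 6951 and 3236 against 3058 and 3602 (-0.51 ± 0.42), and its difference was 0.04 without GFP replicate 1. Ppargc1b, a PGC-1 family coactivator, read 6610 and 7160 against 2592 and 8926 (-0.52 ± 0.47), or 0.38 without lipin replicate 1. limma called 0 genes in each of these lists, where the unadjusted p was under 0.05 for 0 genes too.

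Cytosolic ribosomal proteins and the nuclear-encoded subunits of complex I, the entry point of the respiratory chain, were read the same way. The 43 cytosolic genes had a median of 0.21 with 30 above 0 (69.8%), and 19 (44.2%) had both lipin arrays above both GFP arrays. The 31 complex I genes had 0.12 with 18 above 0 (58.1%) and 11 apart upward (35.5%). Over all genes 17.3% were apart upward. Rps15 of the cytosolic ribosome read 9087 and 7442 against 16362 and 18628 (1.09 ± 0.32, limma adjusted p = 0.962). No test of the difference between these lists and the mitoribosomal genes was made. The arrays behind the lists differed. GFP replicate 2 was lowest for 25 of 43 cytosolic genes, whose median deviation on it was -0.26, while GFP replicate 1 was lowest for 14 of 31 complex I genes. The cytosolic median was 0.09 (25 above 0) without GFP replicate 2 and 0.37 (29 above 0) without GFP replicate 1. That of complex I ran from 0.02 (16 above 0) without GFP replicate 1 to 0.30 (25 above 0) without lipin replicate 1.

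**Figure D5:**
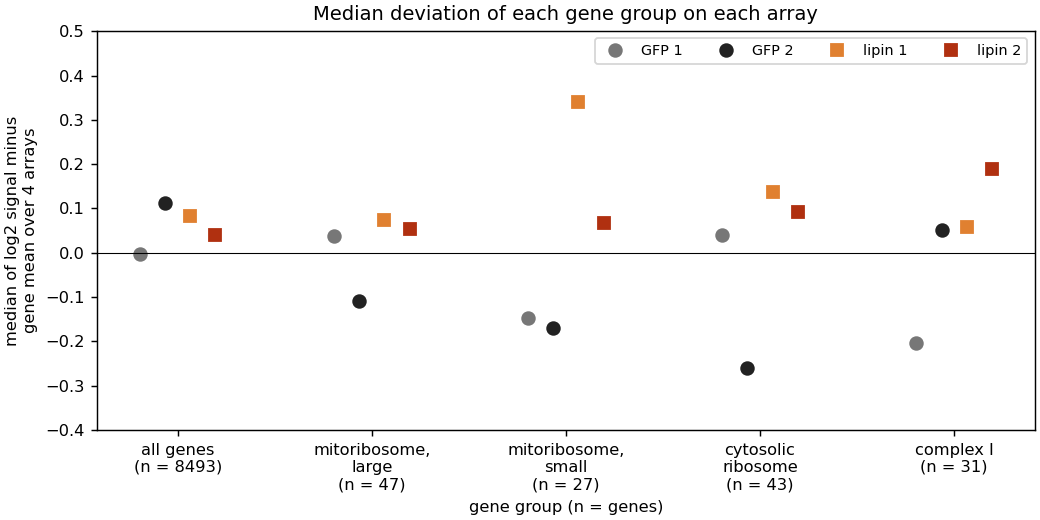
Median over each gene group of the log2 signal minus the gene's mean over the 4 arrays, for each array (circles GFP, squares lipin). The small subunit has lipin 1 highest (0.34) and both GFP arrays low (-0.15 and -0.17), the cytosolic ribosome has GFP 2 lowest (-0.26) and complex I has GFP 1 lowest (-0.20).

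Cell type markers were read beside these values. Of the hepatocyte markers, 6 of 7 tested were above 0 (median 0.20), or 3 of 7 (median -0.32) without GFP replicate 1, and their summed signal ran from 1399710 on GFP replicate 1 to 2890900 on GFP replicate 2, with 1963070 and 2328250 on the lipin arrays. Alb, the serum protein that marks hepatocytes, was among the brightest, at 571410 to 1069100. Of 6 lymphocyte markers on the array, 4 passed the filter on dim signals, and Cd79a and Cd8a did so through the GFP arrays, where they were brighter, so no count or median over these 4 is read. Cd79a, of the B cell receptor, read 894 and 1217 in GFP and 283 and 220 in lipin livers. Cd8a, of cytotoxic T cells, read 472 and 1246 against 351 and 318. Another Cd8a probe set, which did not pass the filter, read 223 and 159 against 133 and 607. Ptprc, on all white blood cells, read 2219 and 1145 against 1549 and 1030, and Nkg7, of natural killer and cytotoxic T cells, 1154 and 951 against 1052 and 684. Cd3e and Cd3g, of the T cell receptor complex, did not pass the filter, with signals of 99.0 and 699 against 509 and 323 and of 81.2 and 41.4 against 42.0 and 883. Macrophage (3 of 6 above 0), endothelial (2 of 4), stellate (2 of 4), neutrophil (1 of 3) and cholangiocyte markers (1 of 1) had medians of 0.24, -0.06, 0.04, -0.14 and 0.33, and all but the neutrophil median turned sign with some array left out. The part of cell makeup in the mitoribosomal values was not tested.

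Promoter sequence is shown for the genes with an unadjusted p under 0.05. None of them passed the adjusted test, and several other genes had wider differences. RefSeq (GRCm38.p6) held promoters for 65 of the 74 genes, 71 in all, and none was found for Mrps34. Each window runs from 250 bases before to 30 bases after the start, 5′ to 3′ on the gene's strand. Capitals mark exact matches, on either strand, to the letters CCGGAAG (ETS family, which includes GABP), GGGCGG (SP1), GCGCATGCG (NRF1), AAGATGGC (YY1), AAGGTCA (ERR) or CACGTG (E-box), and no match shown overlaps another. Mrps14 lies at chr1:160194965-160195244 (plus strand), Mrps5 at chr2:127587176-127587455 (plus), Mrps16 at chr14:20393461-20393740 (minus, the first of 2 starts listed), Mrpl52 at chr14:54426659-54426938 (plus) and Mrpl45 at chr11:97315466-97315745 (plus).
Mrps14: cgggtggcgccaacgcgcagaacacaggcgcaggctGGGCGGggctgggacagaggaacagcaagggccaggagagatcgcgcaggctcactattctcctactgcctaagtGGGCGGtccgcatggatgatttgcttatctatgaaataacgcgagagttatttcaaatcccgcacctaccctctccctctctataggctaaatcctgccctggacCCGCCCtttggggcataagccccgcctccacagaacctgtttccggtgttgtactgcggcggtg
Mrps5: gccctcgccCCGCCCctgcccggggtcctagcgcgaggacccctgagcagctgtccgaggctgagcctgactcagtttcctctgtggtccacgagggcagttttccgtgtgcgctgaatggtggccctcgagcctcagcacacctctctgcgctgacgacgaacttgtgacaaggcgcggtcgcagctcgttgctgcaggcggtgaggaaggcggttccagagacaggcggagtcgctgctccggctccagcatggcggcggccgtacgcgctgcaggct
Mrps16: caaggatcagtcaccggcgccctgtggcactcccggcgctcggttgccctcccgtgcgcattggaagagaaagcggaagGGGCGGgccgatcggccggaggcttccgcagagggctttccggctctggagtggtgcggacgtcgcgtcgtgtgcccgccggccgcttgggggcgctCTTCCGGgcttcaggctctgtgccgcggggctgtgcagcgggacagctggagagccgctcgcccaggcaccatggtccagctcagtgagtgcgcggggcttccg
Mrpl52: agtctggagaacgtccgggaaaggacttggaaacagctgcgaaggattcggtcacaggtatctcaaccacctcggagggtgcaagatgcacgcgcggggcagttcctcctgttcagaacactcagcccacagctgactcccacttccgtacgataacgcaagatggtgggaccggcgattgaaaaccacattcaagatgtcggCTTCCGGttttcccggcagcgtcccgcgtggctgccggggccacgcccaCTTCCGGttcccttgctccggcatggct
Mrpl45: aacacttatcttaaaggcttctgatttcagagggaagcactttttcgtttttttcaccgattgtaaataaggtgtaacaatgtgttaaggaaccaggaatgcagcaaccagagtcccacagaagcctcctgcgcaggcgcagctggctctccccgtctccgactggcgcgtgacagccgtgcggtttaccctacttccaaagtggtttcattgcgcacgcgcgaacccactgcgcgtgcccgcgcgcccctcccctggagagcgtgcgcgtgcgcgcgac
The Mrps14 window held 3 SP1 matches and the Mrps5 window 1. Mrps16 held an SP1 match at -171 and an ETS match at -74, counted from the start, and Mrpl52 held ETS matches at -47 and 3. The Mrpl45 window held none of these letters.

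Over all 71 mitoribosomal promoters, the ETS letters were in 22 (31.0%), against 8.45% of the 32851 promoters in the table and 11.1% of the protein-coding ones. The NRF1 letters were in 7 (9.86%, against 1.67% and 2.23%) and the YY1 letters in 7 (9.86%, against 2.29% and 2.41%). SP1 letters were in 39 (54.9%, against 34.7% and 45.1%), E-boxes in 7 (9.86%, against 6.79% and 7.49%) and ERR letters in 3 (4.23%, against 4.46% and 3.87%). Windows of different starts of a gene can overlap, as for Mrps16, so a site can be counted more than once. By gene, SP1 letters were in 34 of 65 and E-boxes in 5 of 65. The other counts were the same by gene. The median GC content was 58.2%, against 52.5% and 56.1%. SP1 letters were in 18 of 25 small subunit promoters and 21 of 46 large subunit promoters, ETS letters in 8 and 14, and NRF1 letters in 1 and 6. The medians with and without a match were read for all 6 motifs, with no test. The 22 genes with an ETS match had a median difference of 0.12 (13 above 0) and the 43 without 0.32 (28 above 0), whereas the 34 with an SP1 match had 0.22 (24 above 0) and the 31 without 0.13 (17 above 0). With and without a match the medians were 0.68 (5 genes) and 0.15 for the E-box, 0.49 (7 genes) and 0.16 for YY1, 0.37 (3 genes) and 0.15 for ERR, and 0.13 (7 genes) and 0.21 for NRF1. The median was thus higher with a match for 4 of the 6 motifs, 3 of them in at most 7 genes. A match is a description of the letters in the window, and no binding was measured.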

How the data were processed

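Per the submitters' processing notes, the deposited values are linear intensity values made with MAS5, 1 signal per probe set and array. Neither the MAS5 version nor its scaling target is stated there. MAS5 subtracts mismatch probes, which leaves dim probe sets noisy. Of 22690 probe sets, 64 controls were dropped. The floor was 119.5, the 20th percentile of all signals. After taking log2, testing was limited to means over the 4 arrays from the 40th percentile upward (geometric mean 373). A probe set dim in 1 group could thus pass through the other group. Among the mitoribosomal and pathway genes read, Mrps6, Mrpl38 and Noa1 passed through the lipin arrays. Iars2 and Mrm1 passed through the GFP arrays. Mrps6 and Mrpl38 are among the genes counted as apart. limma 3.58.1 in R 4.3.3 (eBayes with trend, 2 residual and 12.7 prior degrees of freedom, two-sided) gave the differences, their standard errors and p-values with Benjamini-Hochberg adjustment over 13576 probe sets. Fold changes are on this floored scale, which understates dim genes.

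Gene symbols came from the platform annotation (20380 probe sets with 1 symbol, 691 with several, 1555 unnamed). A gene was read from its brightest tested probe set, by the mean log2 signal over all 4 arrays. The lipin arrays enter this mean, so the choice can depend on the difference itself. For Mrps14, Mrpl11, Mrpl48 and Mrpl49 another tested probe set was brighter on both GFP arrays and had a lower difference. For Mrpl1 another was brighter on both lipin arrays and had a higher difference. The members, the lists and the named genes were chosen with earlier results of these data known. Named were up to 6 genes per subunit and direction with the smallest p, genes whose probe sets differ in sign, the Mrps18 paralogs, Mrpl12, Mrps12, up to 3 genes per pathway list, and Lpin1. Other genes were named after their values were seen. The cytosolic ribosome list was trimmed of kinases (Rps6k symbols) that its symbol pattern had caught. With 2 arrays per group, their number limits the precision. Replicate numbers did not pair the arrays, since same-numbered deviations correlated at only 0.0283 over 13576 probe sets.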

Additional observations from a re-analysis of the deposited data

How the results depend on the processing

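limma called 0 mitoribosomal probe sets under the alternatives tried for normalization, floor, filter, variance model, threshold (adjusted p under 0.1) and probe sets. With the replicate number as a block it called 52 probe sets of all and 2 mitoribosomal ones, for Mrps14 and Mrps5, but the numbers did not pair the arrays, and there the spread came from the intensity trend alone. Leaving out an array gave 0 to 13 calls over all probe sets and 0 mitoribosomal ones. A group is then a lone array assumed to vary like the other group, and without either lipin array the spread again came from the trend alone, so these fits say nothing about the stability of the calls. The median difference stayed above 0 under each alternative. With an array left out it was 0.18 to 0.28 for the 74 genes, 0.16 to 0.25 for the large subunit (both highest without lipin replicate 2) and 0.23 to 0.47 for the small subunit, and large minus small was -0.24 to -0.087 (nearest 0 without lipin replicate 1). The median over all genes tested moved as well, from -0.12 without GFP replicate 1 to 0.083 without lipin replicate 2. The highest median of the 74 genes thus stood beside the highest median of all genes. Subunits by position and the counts above 0 were alternatives added after seeing the data.

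Over 39 named genes and 576 alternatives, 534 kept direction and side of the threshold, and 40 turned the sign. Leaving out an array turned Mrps28 (-0.43 to 0.25), Mrps36 (-0.19 to 0.13), Mrpl15 (-0.075 to 0.17), Mrpl21 (-1.14 to 0.54), Mrpl39 (-0.68 to 0.31), Mrpl50 (-0.031 to 0.67), Mrpl12 (-0.047 to 3.88), Mrpl41 (-0.99 to 0.16), Mrps18b (-0.11 to 3.55), Mrpl1 (-1.18 to 0.56), Mrpl28 (-0.62 to 0.25), Mrpl33 (-1.07 to 0.18), Mrps12 (-0.40 to 0.34), Mrps26 (-0.64 to 0.070) and Mrpl51 (-0.19 to 0.49). Averaging the probe sets of each gene turned Mrpl35 (-0.21), Mrpl41 (0.060), Mrpl1 (0.028), Mrpl15 (-0.25), Mrpl21 (1.23), Mrpl28 (0.12), Mrpl33 (0.42), Mrpl39 (0.11), Mrpl48 (-0.45) and Mrps15 (-0.33). Without probe sets able to match several transcripts, the sign turned for Mrpl35 (-1.17), Mrpl52 (0.15), Mrpl15 (-1.14), Mrpl21 (2.76), Mrpl28 (0.28), Mrpl39 (0.40), Mrpl51 (-0.18) and Mrps15 (-1.03). Quantile normalization turned Mrps28 (0.021), median centring Mrps36 (8.16e-05) and a floor at the 30th percentile Mrpl33 (1.07). In the last 3 sets another probe set or scale was read, and the cause of the turns with an array left out was not tested. Without detection calls, how far a probe set stood above background was not assessed.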
